A study of Mus musculus with 8 samples.

Results

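Complexes II to V are the part of the mitochondrial respiratory chain that takes electrons from succinate and ubiquinol to oxygen and makes ATP. The genes described here are the nuclear genes of their subunits. They were taken from the deposited liver count table as every protein-coding gene whose GRCm38 symbol is *Sdha*, *Sdhb*, *Sdhc*, *Sdhd* or *Cyc1*, or begins with Uqcr, Cox4 to Cox8, or Atp5. The rule used names only and no measured value. It found 44 of the 18095 genes in the table, of which 4 belong to complex II, 9 to complex III, 14 to complex IV and 17 to complex V. In the GENCODE M21 annotation 49 protein-coding genes fit the rule. *Cox6a2*, *Cox7b2*, *Cox8b*, *Cox8c* and a second gene called *Atp5o* (ENSMUSG00000116933) had no row in the count table and could not be analysed. Also matched by name were *Cox7a2l*, which takes part in supercomplex assembly, and *Atp5s*, a factor coupled to the ATP synthase. Neither is a structural subunit, and both were kept as the rule gives them.

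Both groups were males of 12 weeks on a high-fat diet (HFD), one wild type (WT) and one labelled Inpp4b-/-, with 4 mice each and 1 liver RNA library per mouse. Inpp4b encodes a phosphatase of inositol lipids, and the deletion is present in all tissues. Their dams had eaten the HFD before mating, in pregnancy and during lactation, and the pups stayed on it, so that maternal and own diet are shared by both groups. The sample labels give the strain as C57BL/6, whereas the study's methods describe breeding into FVB. The labels also name removal of rRNA with Ribo-Zero, which the methods do not mention. The comparison addresses the effect of the loss of INPP4B on the liver under this diet.

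Complex II (succinate dehydrogenase) links the citrate cycle to the chain, complex III passes electrons from ubiquinol to cytochrome c, complex IV (cytochrome c oxidase) reduces oxygen, and complex V (ATP synthase) uses the resulting proton gradient. All subunits of complex II are nuclear, whereas the other complexes join nuclear subunits to a few encoded by mitochondrial DNA. Promoters of many of these nuclear genes are known for binding sites of ETS factors such as GABP (formerly NRF-2), of NRF1 and of YY1, and several complex IV subunits have separate isoforms for liver and for muscle, heart, testis or lung.

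Motifs of these factors were looked for on both strands of the RefSeq windows (GRCm38.p6) that run from 250 bases before to 50 bases after a start site. Windows were matched for 34 of the 44 genes. No window was matched for *Sdhc*, *Cyc1*, *Uqcrb*, *Uqcrc2*, *Uqcrq*, *Cox4i1*, *Cox4i2*, *Cox6c*, *Atp5a1* and *Atp5mpl*. The ETS core CCGGAAG was found in 12 of the 34 genes (35.3%) and in 8.86% of all 32851 windows. The palindromic NRF1 core, whose letters are the capitals of the *Cox6a1* line so named, was found in 4 genes (11.8%) and in 0.971% of windows. With the A of its middle free, a form that includes every match of the strict core, it was found in 10 genes (29.4%) and in 4.6% of windows. The YY1 motif, the capitals of the last *Atp5j* line, was found in *Atp5j* alone (2.94%) and in 0.852% of windows. Sites are printed for the 5 genes with the ETS core among the 10 that reached an unadjusted p under 0.05 between the genotypes (*Sdhb*, *Cox6a1*, *Cox6b1*, *Cox8a* and *Atp5j*) and for *Atp5k*, with the highest fold change of complex V. The sequences read 5′ to 3′ on the strand of the gene, and capitals mark the motif, written as CTTCCGG where CCGGAAG is on the other strand.
*Sdhb*, ETS core, chr4:140961266-140961294, plus strand, in an exon: gctcggagaaaCCGGAAGcggccttccac
*Cox6a1*, ETS core, chr5:115348959-115349014, minus strand, motif in an exon: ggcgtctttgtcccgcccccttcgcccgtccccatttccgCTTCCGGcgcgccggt
*Cox6a1*, NRF1 core, chr5:115349071-115349160, minus strand, upstream: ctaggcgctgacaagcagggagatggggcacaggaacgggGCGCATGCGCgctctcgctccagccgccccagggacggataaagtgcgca
*Cox6b1*, ETS core, chr7:30626125-30626153, minus strand, motif in an exon: tcctctcgcagCTTCCGGccagtcggaat
*Cox8a*, ETS core across the exon's edge, chr19:7217604-7217632, minus strand: tttccgaaataCTTCCGGctcgggcgtcc
*Cox8a*, ETS core, chr19:7217567-7217595, minus strand, in an exon: cagcgccggaaCTTCCGGctggttcggcc
*Atp5j*, ETS core, chr16:84835020-84835048, minus strand, in an exon: agctgagggacCCGGAAGcacttaccctc
*Atp5j*, YY1 motif, chr16:84835045-84835074, minus strand, in an exon: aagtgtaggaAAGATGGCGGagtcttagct
*Atp5k*, ETS core, chr5:108434370-108434398, minus strand, in an exon: cctcagttgagCTTCCGGcgcgaaggtca
*Atp5k*, NRF1 core, chr5:108434430-108434459, minus strand, across the exon's edge: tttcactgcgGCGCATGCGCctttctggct

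The placement in exons follows GENCODE M21, whose starts differ from those of RefSeq for some of these genes. A match is a string of letters in a window, and no factor's binding was measured. Between the genotypes, the median log2 fold change was 0.18 for the 12 genes with the ETS core, and the 22 genes without it had 0.12. For the NRF1 core with the free base the medians were 0.11 in the 10 genes with it and 0.13 in the 24 without.

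Sequencing depth was 25893430 to 31427831 counts in the libraries labelled HFD WT and 32738435 to 36662531 in those labelled HFD Inpp4b-/-, so each of the latter was deeper than each of the former. Counts were scaled by edgeR's TMM method and are given as CPM, counts per 1000000 of the scaled total. *Inpp4b* itself (chromosome 8 of GRCm38, 81342556 to 82127914) had counts of 6, 20, 5 and 8 in the libraries labelled HFD WT, against 33, 10, 9 and 14 in those labelled HFD Inpp4b-/-. Its counts were not lower in the libraries labelled as knockouts (log2 ratio of mean CPM with 0.1 CPM added 0.39, two-sided exact permutation test, p = 0.514, n = 4 per genotype), so every direction below rests on the labels. Hepatocyte markers were abundant in every library (8 of 8 markers, summed 78485.6 to 85299.9 CPM in WT and 78324.5 to 99182.9 CPM in Inpp4b-/-). Most of this sum was *Alb*, so it says little of the other markers. Of the 8, 3 were higher and 5 lower in Inpp4b-/- (median log2 fold change -0.12). *Alb* and *Ttr* were higher without overlap between the groups, and *Tat* was lower without overlap (-1.08 ± 0.38, SE). None of 8 muscle markers had a row in the table.

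In these livers none of the subunit genes was called differentially expressed, and most of them had slightly higher values in the libraries labelled HFD Inpp4b-/-. Following the thresholds of the study, a call needed more than a 1.3-fold difference together with an adjusted p (Benjamini-Hochberg) below 0.10 in edgeR's quasi-likelihood test. Of the 44 genes, 43 passed the expression filter and *Cox4i2* did not. Called genes numbered 0 of the 43, beside 1.17% of the 14866 genes tested (174 genes, 0.552% higher and 0.619% lower), and the smallest adjusted p was 0.251, of *Cox5b*. By DESeq2, 0 of the 44 genes were called, beside 3.81% of 18069, with a smallest adjusted p of 0.163. At an unadjusted p under 0.05 there were 10 of the 43 with edgeR (23.3%), beside 13.9% of all tested genes. Abundant genes reached this p more often, at 20.8% of the tested genes with a mean of at least 50 CPM. With DESeq2 there were 8 of the 44, beside 14.0% of the genes it tested. The 10 genes with edgeR were *Sdhb*, *Uqcrq*, *Cox5b*, *Cox6a1*, *Cox6b1*, *Cox6c*, *Cox7b*, *Cox7c*, *Cox8a* and *Atp5j*, and all 10 had higher means in the libraries labelled HFD Inpp4b-/-, as 6.8% of all tested genes did at this p. None of the 43 had a lower mean at this p, beside 7.14%.

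A log2 fold change above 0 means a higher value in the libraries labelled HFD Inpp4b-/-. It was above 0 for 36 of the 43 genes, beside 50.4% of all tested genes, and its median was 0.13, beside 0.0027 over all tested genes. The 7 genes below 0 were *Sdha*, *Sdhd*, *Cox6b2*, *Cox7a1*, *Cox7a2l*, *Atp5mpl* and *Atp5b*. The libraries of the 2 genotypes did not overlap, with Inpp4b-/- higher, for 6 of the 43 (*Sdhc*, *Uqcrc2*, *Cox6a1*, *Cox6c*, *Cox7b* and *Cox8a*), beside 4.63% of all tested genes. Among tested genes with a mean of at least 50 CPM the share without overlap and higher was 7.36%. The libraries did not overlap in the other direction for 0 of the 43, beside 4.09% of all tested genes. All members were read from the same 8 libraries, so these counts are not independent observations.

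**Figure D1:**
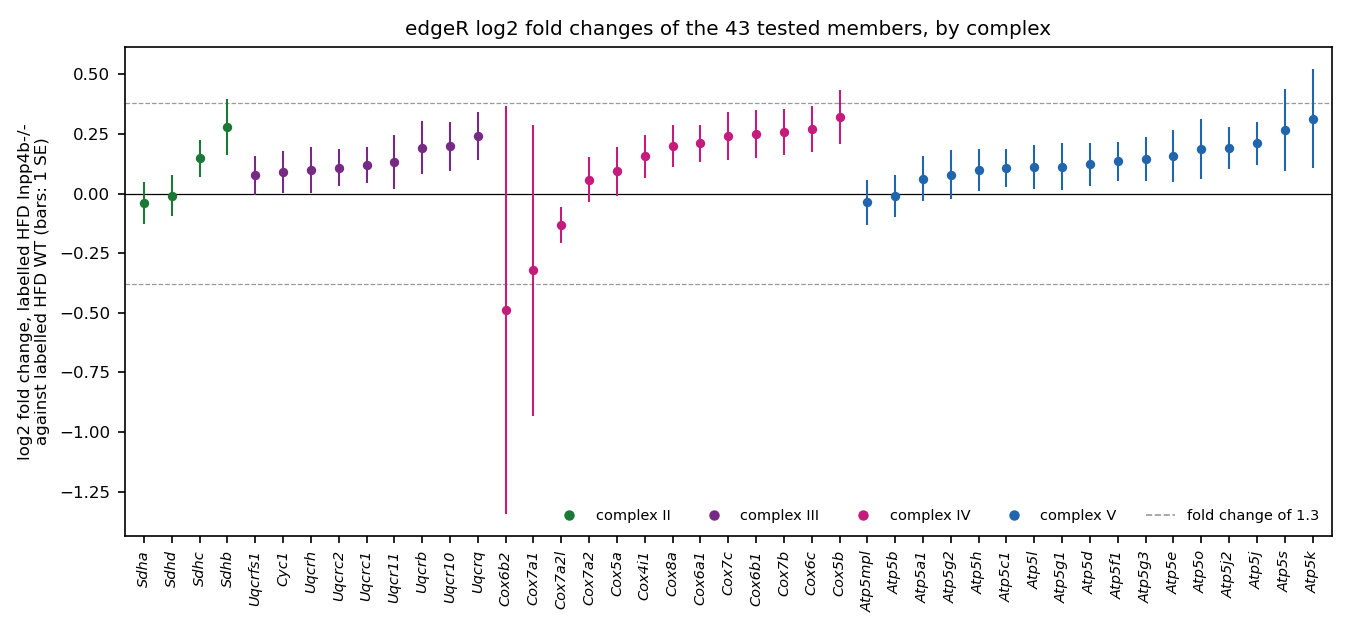
Log2 fold change of each tested subunit gene between the libraries labelled HFD Inpp4b-/- and HFD WT (n = 4 each), grouped by complex. Bars are 1 SE derived from edgeR's test, and dashed lines mark a fold of 1.3. No point lies above the upper dashed line (highest 0.32, *Cox5b*), and *Cox6b2* and *Cox7a1*, both low in counts, have the widest bars.

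Levels were compared between genes as RPKM, reads per kilobase of merged exon per 1000000. Over the 8 libraries the highest means were those of *Cox6a1* at 489 ± 43.3 RPKM (SD), *Cox8a* at 433.6 ± 43.1, *Atp5a1* at 321 ± 21.4, *Cox6b1* at 287.5 ± 36.7 and *Atp5b* at 284.7 ± 14.0. The ranges of *Cox6a1* and *Cox8a* overlapped, as did those of *Atp5a1*, *Cox6b1* and *Atp5b*. The mean of *Sdha*, the flavoprotein of complex II, was 123.5 ± 7.56 RPKM. The merged exon length counts every annotated exon, rare ones included, so RPKM understates genes with long annotated exons such as *Atp5l* (6443 bases, 14.4 RPKM).

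**Figure D2:**
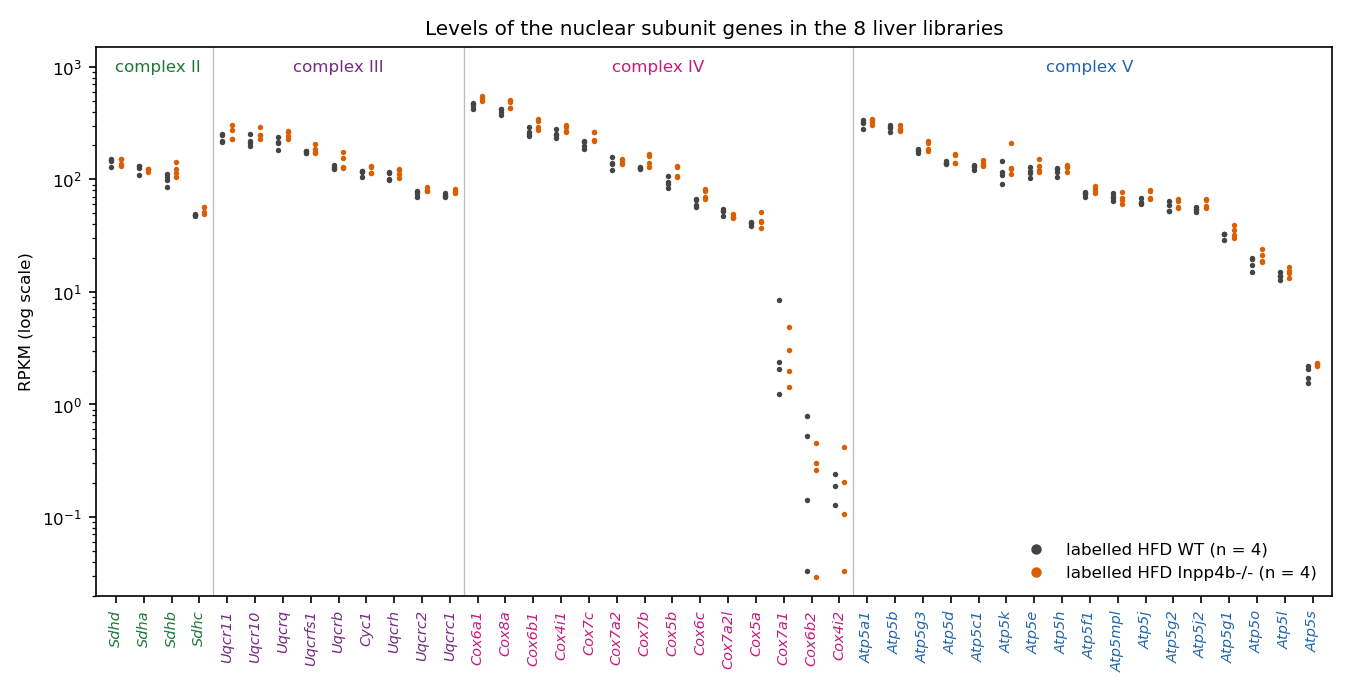
Level of each subunit gene in reads per kilobase of exon per 1000000 (RPKM, log axis), with 1 point per library, by complex and genotype label. *Cox4i2*, *Cox6b2*, *Atp5s* and *Cox7a1* lie far below the rest, and the 1 library with 0 counts of *Cox4i2* (HFD WT replicate 4) is not drawn.

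The isoforms that reached high levels were those known from liver. *Cox4i1*, the general form of subunit 4, averaged 268.6 RPKM and *Cox4i2*, its lung form, 0.165 RPKM. *Cox4i2* had 4, 6, 3 and 0 counts in the libraries labelled HFD WT and 12, 1, 5 and 3 in those labelled HFD Inpp4b-/-. These counts overlapped between the genotypes (log2 ratio 0.26, two-sided exact permutation test, p = 0.657). The deposited table holds genes with at least 1 read in every library of a genotype. *Cox4i2* met this only in the libraries labelled HFD Inpp4b-/-, so its comparison between the genotypes decides nothing. *Cox7a2*, the liver form of subunit 7a, averaged 141 RPKM and *Cox7a1*, its heart and muscle form, 3.2 RPKM. *Cox6b1* stood at 287.5 RPKM and *Cox6b2*, its testis form, at 0.316 RPKM. The 3 genes that encode the same mature subunit c of the ATP synthase were ordered *Atp5g3* (189 ± 16.9 RPKM), *Atp5g2* (59.1 ± 5.67) and *Atp5g1* (32.8 ± 3.19), and their ranges over the 8 libraries did not overlap. The order of *Atp5g2* and *Atp5g1* rests on the division by merged exon length (1675 and 4912 bases). In CPM *Atp5g1* was the higher of the pair, with means of 155.0 in WT and 167.5 in Inpp4b-/- against 96.2 and 101.7 for *Atp5g2*. *Atp5s* was low at 2.08 RPKM.

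Complex II had the lowest median of the 4 complexes. Of its 4 genes *Sdhb* and *Sdhc* were above 0 and *Sdha* and *Sdhd* below, and the median log2 fold change was 0.07. *Sdhb*, the subunit with the iron-sulfur clusters, had 222, 248, 234 and 191 CPM in replicates 1 to 4 labelled HFD WT and 234, 256, 278 and 318 CPM in replicates 1 to 4 labelled HFD Inpp4b-/-. Replicate 4 was the lowest of the WT and also the highest of the Inpp4b-/- libraries, and the groups overlapped in the middle. The log2 fold change was 0.28 ± 0.12 (SE, n = 4 per genotype, adjusted p = 0.331). *Sdha*, which holds the flavin and the succinate site, had 545, 521, 547 and 455 CPM in WT and 479, 508, 515 and 507 CPM in Inpp4b-/-. All its Inpp4b-/- values lay within the WT range, and the log2 fold change was -0.04 ± 0.09 (adjusted p = 0.871), with an interval of 2 SE from -0.22 to 0.13.

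*Sdhc* and *Sdhd* encode the membrane anchors of complex II. *Sdhc* ranged from 154 to 159.7 CPM in WT and from 159.8 to 184 CPM in Inpp4b-/-, so that the groups met at their edges without overlap (0.15 ± 0.08, adjusted p = 0.442). *Sdhd* ranged from 159.9 to 188 CPM in WT and from 162 to 186 CPM in Inpp4b-/-, within the WT range. Its log2 fold change was -0.01 ± 0.09, with an interval from -0.18 to 0.16, and changed sign under 5 of the alternatives tried.

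In complex III all 9 genes were above 0, from 0.08 (*Uqcrfs1*) to 0.24 (*Uqcrq*), with a median of 0.12. Among the redox subunits, *Uqcrfs1*, the Rieske iron-sulfur protein, had 234, 242, 245 and 233 CPM in WT and 240.4, 235, 279.7 and 252 CPM in Inpp4b-/-. Replicates 3 and 4 labelled Inpp4b-/- were above every WT library, and replicates 1 and 2 were inside the WT range (adjusted p = 0.719). *Cyc1*, the cytochrome that hands electrons to cytochrome c, had the same pattern, with 254, 248, 258 and 226 CPM in WT and 243, 243, 279 and 282 CPM in Inpp4b-/- (0.09 ± 0.09, adjusted p = 0.699).

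The core protein *Uqcrc1* had 297, 299, 314 and 287 CPM in WT and 313, 322, 326 and 341 CPM in Inpp4b-/-. Only replicate 1 labelled Inpp4b-/- fell within the WT range, and the difference was 0.12 ± 0.07 (adjusted p = 0.509). *Uqcrc2*, its partner core protein, was the one gene of complex III without overlap, at 178 to 199.7 CPM in WT and 200 to 217 CPM in Inpp4b-/- (0.11 ± 0.08, adjusted p = 0.568). It shares 504 exon bases with *Pdzd9* on the other strand. *Uqcrq*, a small accessory subunit, had 432, 337, 386 and 395 CPM in WT and 441, 416, 492 and 483 CPM in Inpp4b-/-. WT replicate 1 lay within the Inpp4b-/- range and WT replicate 2 far below it (0.24 ± 0.10, adjusted p = 0.326). The other accessory genes, *Uqcr10*, *Uqcr11*, *Uqcrb* and *Uqcrh*, had log2 fold changes of 0.10 to 0.20 and adjusted p values of 0.425 to 0.686.

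Complex IV had the highest median log2 fold change, 0.20 over 13 tested genes, and 7 of the 10 genes at an unadjusted p under 0.05. Of the 13, 10 were above 0. *Cox5b*, the zinc-binding subunit, had 152, 134, 144 and 169.7 CPM in WT and 169, 165, 206 and 208 CPM in Inpp4b-/-. WT replicate 4 exceeded the lower pair of Inpp4b-/- libraries, and replicates 3 and 4 labelled Inpp4b-/- stood above all others. Its log2 fold change, 0.32 ± 0.11 (adjusted p = 0.251), was the highest of all the subunit genes and corresponds to 24.9% more counts. *Cox5a*, its neighbour in the complex, had 85.7, 88.3, 85.9 and 80.3 CPM in WT and 90.2, 77.4, 107 and 88.5 CPM in Inpp4b-/-. The groups overlapped, with Inpp4b-/- replicates at both extremes (0.09 ± 0.10, adjusted p = 0.725).

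*Cox4i1* had 396, 358, 388 and 433 CPM in WT and 407, 420.1, 473 and 455 CPM in Inpp4b-/-. WT replicate 4 was above the lower pair of Inpp4b-/- libraries (0.16 ± 0.09, adjusted p = 0.486). The gene lies on chromosome 8, as *Inpp4b* does, and shares 154 exon bases with *Emc8* on the other strand. *Cox6a1*, the liver form of subunit 6a, had 316, 297, 332 and 328 CPM in WT and 361, 350.3, 384 and 378 CPM in Inpp4b-/-. Every Inpp4b-/- library exceeded every WT library, with replicates 3 and 4 again the higher pair, and the difference was 0.21 ± 0.08 (adjusted p = 0.274). Its promoter window holds both an ETS and an NRF1 core, as that of *Atp5k* does.

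*Cox6b1*, which links the monomers of the oxidase, had 207, 170.3, 180.5 and 186 CPM in WT and 196, 208, 245 and 235 CPM in Inpp4b-/-, with WT replicate 1 above Inpp4b-/- replicate 1 (0.25 ± 0.10, adjusted p = 0.304). *Cox7b* had 149.5, 152, 152 and 157 CPM in WT and 157, 169.9, 205 and 198 CPM in Inpp4b-/-, without overlap (0.26 ± 0.10, adjusted p = 0.284). *Cox8a*, the general form of subunit 8, had 264, 231, 259 and 246 CPM in WT and 266, 269, 312 and 301 CPM in Inpp4b-/-, also without overlap (0.20 ± 0.09, adjusted p = 0.352). In *Cox7b* and *Cox8a* Inpp4b-/- replicate 1 nearly touched the WT range, and replicates 3 and 4 stood highest. *Cox6c* had 201 to 236 CPM in WT and 240.0 to 294 CPM in Inpp4b-/-, without overlap (0.27 ± 0.10, adjusted p = 0.266), and shares 250 exon bases with *Vps13b* on the other strand. *Cox7c* had 209 to 249.5 CPM in WT and 246 to 300.5 CPM in Inpp4b-/-, with overlap at the edge (0.24 ± 0.10, adjusted p = 0.323).

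The 3 genes of complex IV below 0 were 2 nearly silent isoforms and a gene that is no structural subunit. *Cox6b2* had 1, 5, 26 and 15 counts in WT and 18, 11, 1 and 12 counts in Inpp4b-/-, with overlap over the whole range (-0.49 ± 0.85, adjusted p = 0.843). *Cox7a1* had 1.11, 0.661, 1.28 and 4.57 CPM in WT and 1.05, 2.6, 1.64 and 0.758 CPM in Inpp4b-/-. WT replicate 4 stood apart from the others, and without it the log2 fold change turned from -0.32 ± 0.61 to 0.58. *Cox7a2* had 148, 114, 129 and 132 CPM in WT and 128, 132, 139.5 and 144 CPM in Inpp4b-/-, within the WT range (0.06 ± 0.09, interval -0.13 to 0.24). *Cox7a2l* was 69.3 to 79.9 CPM in WT and 67.7 to 72.6 CPM in Inpp4b-/- (-0.13 ± 0.08, adjusted p = 0.476), and reached an unadjusted p under 0.05 without WT replicate 4 (-0.17).

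**Figure D3:**
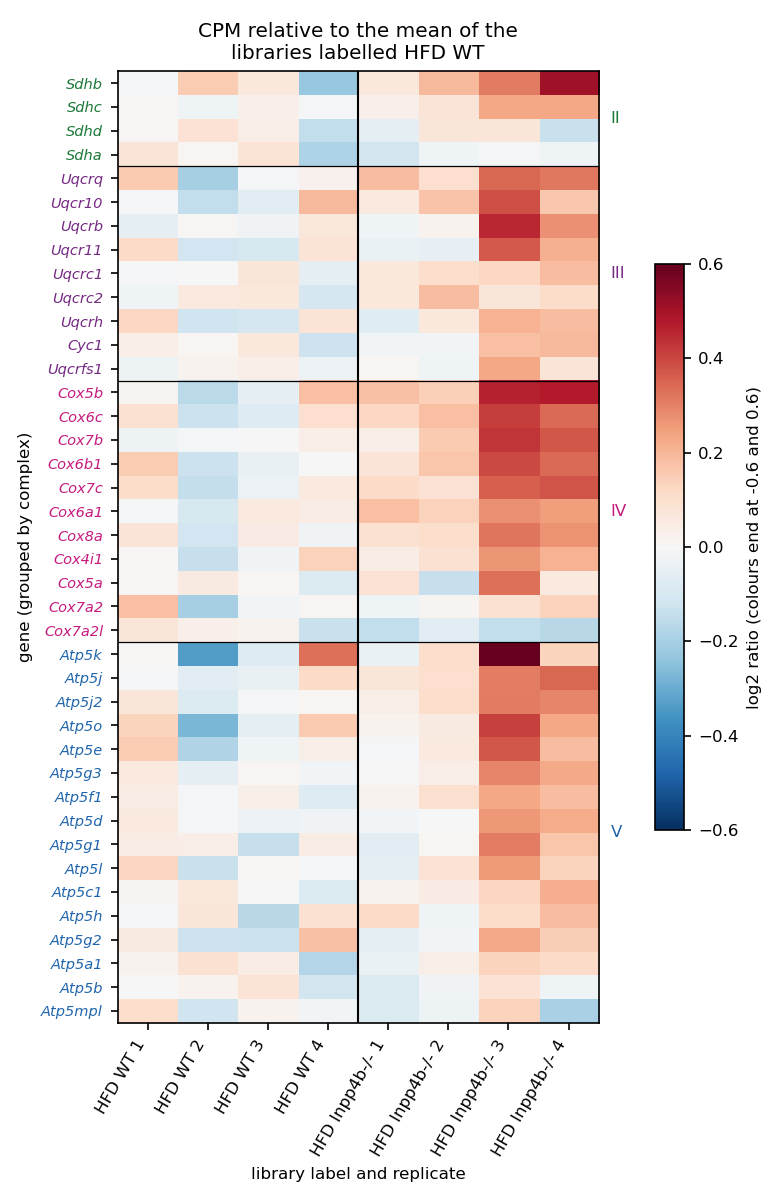
Log2 of each subunit gene's CPM in each library relative to the mean of the 4 libraries labelled HFD WT, with genes in rows by complex and libraries in columns. The columns of HFD Inpp4b-/- replicates 3 and 4 are the highest for most genes, and those of replicates 1 and 2 are close to the HFD WT columns.

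Complex V held the subunit genes with the highest CPM, *Atp5b* and *Atp5a1*. Of its 17 genes, 15 were above 0 and the median log2 fold change was 0.12. *Atp5a1*, the alpha subunit of the catalytic head, had 1000.2 CPM in WT replicate 1 and 1051, 1017 and 872 CPM in the other WT libraries, against 958, 1009, 1080 and 1066 CPM in Inpp4b-/-. *Atp5b*, the catalytic beta subunit, had 1209.9, 1227, 1283 and 1123 CPM in WT and 1139.5, 1192, 1286 and 1189 CPM in Inpp4b-/-. Both genes overlapped widely between the genotypes, at 0.06 ± 0.09 (interval -0.12 to 0.25) for *Atp5a1* and -0.01 ± 0.09 (interval -0.19 to 0.16) for *Atp5b*. *Atp5c1*, the gamma subunit in the rotor's shaft, had 249, 257, 245 and 232 CPM in WT and 249, 254, 269 and 286 CPM in Inpp4b-/- (0.11 ± 0.08, adjusted p = 0.594). Its first pair of Inpp4b-/- libraries lay in the WT range and its second above it.

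The subunit c genes of the membrane ring overlapped between the genotypes. *Atp5g1* had 159.8, 159.4, 140.8 and 159.9 CPM in WT and 148, 156, 192 and 174 CPM in Inpp4b-/- (0.11 ± 0.10). WT replicate 3 was low against 3 nearly equal libraries. *Atp5g2* had 99.9, 88.3, 88.0 and 109 CPM in WT and 92.3, 95.1, 113 and 107 CPM in Inpp4b-/- (0.08 ± 0.10), and *Atp5g3* had 408, 377, 394 and 388 CPM in WT and 390.5, 403, 481 and 458 CPM in Inpp4b-/- (0.14 ± 0.09). Their adjusted p values were 0.521 to 0.771.

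The extremes of complex V were small subunits. *Atp5k*, subunit e of the membrane part, had 71.3, 56.2, 67.2 and 89.1 CPM in WT and 69.1, 76.3, 129 and 77.8 CPM in Inpp4b-/-. One library, Inpp4b-/- replicate 3, was far above the others, and the remaining 3 lay within the WT range. The log2 fold change of 0.31 ± 0.21 (adjusted p = 0.542) was 0.07 without that library. *Atp5mpl* had 91.2, 78.0, 86.0 and 83.9 CPM in WT and 79.9, 83, 93.4 and 74.0 CPM in Inpp4b-/- (-0.04 ± 0.09, adjusted p = 0.892), with the Inpp4b-/- libraries at both ends. *Atp5j*, coupling factor 6 of the stalk, was the one gene of complex V at an unadjusted p under 0.05, with 190.2 to 216 CPM in WT and 209.8 to 253 CPM in Inpp4b-/- (0.21 ± 0.09, adjusted p = 0.346). It shares 397 exon bases with *Gabpa* on the other strand. The other members, *Atp5d*, *Atp5e*, *Atp5f1*, *Atp5h*, *Atp5j2*, *Atp5l*, *Atp5o* and *Atp5s*, ranged from 0.10 to 0.27 with adjusted p values of 0.374 to 0.663.

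The same libraries carried the difference in most of these genes. Counts are given for the 40 genes with a mean of at least 20 CPM. That limit and the choice of replicates 3 and 4 were made after the values were seen. The counts therefore describe the pattern and do not test it. In 31 of the 40, replicates 3 and 4 labelled HFD Inpp4b-/- were both above replicates 1 and 2, beside 23.0% of all tested genes. They were both above every WT library in 31 of the 40, beside 11.95% of all tested genes. Replicates 1 and 2 labelled HFD Inpp4b-/- were both above every WT library in 6 of the 40, beside 11.99%, and both inside the WT range in 24. The highest of the 8 values was that of Inpp4b-/- replicate 3 in 27 genes and of replicate 4 in 8, and the lowest was most often that of WT replicate 2 (20 genes).

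Relative to the WT mean, the median of the 40 genes was 0.04, -0.06, -0.0055 and 0.0066 on the log2 scale in WT replicates 1 to 4, and 0.02, 0.07, 0.27 and 0.19 in Inpp4b-/- replicates 1 to 4. Replicates 3 and 4 also had the highest of the Inpp4b-/- medians within each of the 4 complexes. Without Inpp4b-/- replicate 3 the number at an unadjusted p under 0.05 went from 10 to 0, beside 11.71% of all tested genes. The median over the 40 genes went from 0.13 to 0.09. The number at this p was 3 without Inpp4b-/- replicate 4, beside 11.82%. It was 1 without WT replicate 2, beside 16.06%, and 2 without WT replicate 3, beside 12.76%. Inpp4b-/- replicates 3 and 4 had TMM factors of 0.950 and 0.972 against 1.03 and 1.06 in replicates 1 and 2. The values by library were computed with TMM alone, so the part of this scaling in their pattern was not tested. Between the genotypes, the median of the 40 genes was 0.125 with DESeq2 size factors and 0.160 with upper quartile scaling, beside 0.134 with TMM.

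**Figure D4:**
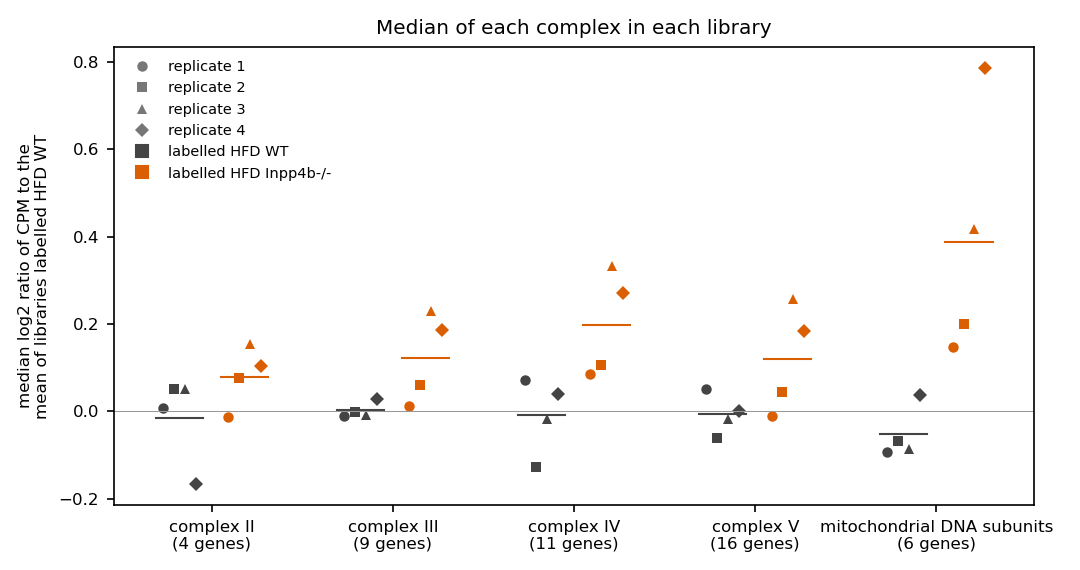
Median log2 CPM relative to the HFD WT mean for the subunit genes of each complex and for the subunits encoded by mitochondrial DNA, with 1 point per library and a line at the mean of each genotype label. In each nuclear set HFD Inpp4b-/- replicates 3 and 4 are highest, and the mitochondrial DNA subunits reach 0.79 in replicate 4.

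Subunits of complexes III to V that are encoded by mitochondrial DNA were above 0 in 6 of 6, with their median at 0.39 on the log2 scale, and 0 of the 6 were called with edgeR. The highest was *mt-Atp6* (0.83 ± 0.29, adjusted p = 0.254), the membrane subunit of the proton path. *mt-Co2*, the copper-binding subunit of complex IV, had 68.5, 74.2, 72.8 and 76.8 CPM in WT and 87.5, 81.0, 98.6 and 94.3 CPM in Inpp4b-/-, without overlap (0.31 ± 0.09, adjusted p = 0.173). *mt-Co1* (0.39 ± 0.15, adjusted p = 0.279) had no overlap either, and *mt-Cytb* of complex III (0.39 ± 0.14, adjusted p = 0.259) overlapped by 1 pair of libraries. *mt-Co3* and *mt-Atp8* had log2 fold changes of 0.36 and 0.71 with adjusted p values of 0.498 and 0.431. DESeq2 called *mt-Atp6* (adjusted p = 0.0946) and *mt-Cytb* (adjusted p = 0.0912). The share of counts from mitochondrial DNA was 4.75 to 5.64% in WT and 5.84 to 7.42% in Inpp4b-/-, without overlap.

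Levels of the mitochondrial DNA subunits were very unequal, from 14229 RPKM for *mt-Co1* and 9162 RPKM for *mt-Cytb* to 120 RPKM for *mt-Co2* and 5.35 RPKM for *mt-Atp8*. Nuclear copies of mitochondrial DNA exist in mice and the handling of reads with several matches is not given in the sources used here, so these counts are uncertain.

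Companion genes of the pathway also had 0 calls with edgeR. At an unadjusted p under 0.05, edgeR gave 4 of 6 mitochondrial DNA subunits, 3 of 10 assembly factors of complexes II and III, 2 of 22 of complex IV and 2 of 8 of complex V. It gave 1 of 14 regulators, 2 of 8 carriers, 2 of 14 citrate cycle enzymes and 0 of 2 cytochrome c genes, beside 13.9% of all tested genes. DESeq2 called 3 companion genes, *mt-Atp6*, *mt-Cytb* and *Mpc1*. Assembly factors of complexes II and III were above 0 in 6 of 10 tested, from *Lyrm7*, a chaperone of the Rieske protein (-1.75 ± 0.62, adjusted p = 0.26, under 2.5 CPM in every library), to *Sdhaf1* (0.32, adjusted p = 0.559). Assembly factors of complex IV were above 0 in 16 of 22, with a median of 0.09, from *Lrpprc* (-0.16) to *Cox16* (0.32, adjusted p = 0.311). Of 8 assembly and regulatory genes of complex V 6 were above 0, with *Fmc1* the highest (0.35 ± 0.11, adjusted p = 0.201, no overlap) and *Atpif1*, the inhibitor of ATP hydrolysis, the lowest (-0.02, adjusted p = 0.965). *Cycs*, somatic cytochrome c, which carries electrons from complex III to complex IV, was at 0.07 ± 0.09 (adjusted p = 0.764).

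Transcriptional regulators of respiratory genes were above 0 in 5 of 14, with a median of -0.04. *Nrf1* was at -0.17 ± 0.17, *Gabpa* at 0.08 ± 0.13, *Yy1* at -0.18 ± 0.09 and *Esrra* at -0.04 ± 0.13. The coactivator *Ppargc1a* was at 0.33 ± 0.21 and *Tfam*, which packages and transcribes mitochondrial DNA, at 0.23 ± 0.10 (adjusted p = 0.355). The extremes were *Ppargc1b* (0.48, adjusted p = 0.604) and *Pprc1* (-0.60, adjusted p = 0.427). Carriers of adenine nucleotides, phosphate and pyruvate were above 0 in 8 of 8, with a median of 0.11, from *Slc25a3* (0.02) to *Mpc1*, a subunit of the pyruvate carrier (0.49 ± 0.13, adjusted p = 0.155 with edgeR and 0.047 with DESeq2, which called it). Citrate cycle enzymes were divided, with 7 of 14 above 0 and a median of 0.0080, from *Fh1* (-0.19) to *Suclg1* (0.22, adjusted p = 0.26).

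Many of these subunits are encoded by short transcripts, and short genes as a whole were slightly higher in the libraries labelled HFD Inpp4b-/-. Over all tested genes the median log2 fold change fell from 0.05 in the shortest of 4 equal length classes (24 to 2296 bases of merged exon) through 0.02 and -0.0080 to -0.03 in the longest (from 6341 bases). The subunit genes had medians of 0.14 in the shortest class (31 genes), 0.17 in the next (6 genes) and 0.11 in the class after it (5 genes). With an offset for exon length in each library, 35 of the 43 were above 0 and the median of the 40 genes was 0.11. At an unadjusted p under 0.05 there were 3 of the 43, beside 13.83% of all tested genes. They were *Cox6c* (0.26) and *Cox5b* (0.26) above 0 and *Cox7a2l* (-0.20) below 0.

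**Figure D5:**
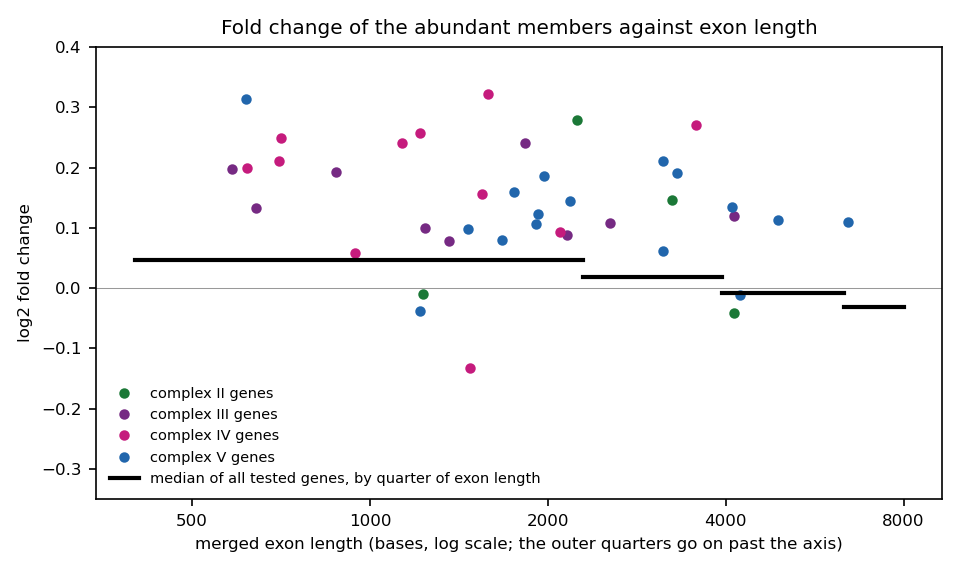
Log2 fold change of the 40 subunit genes with a mean of at least 20 CPM against merged exon length (bases, log axis), with the median of all tested genes in each of 4 length classes as a black line. The line falls from 0.05 to -0.03, and most subunit genes lie above it.

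In a whole liver, fewer cells of a type and less RNA per cell cannot be told apart. Cholangiocyte markers (5 of 5 in the table) summed to 23.7 to 31.6 CPM in WT and 29.8 to 40.6 CPM in Inpp4b-/-, where replicates 3 and 4 had 39.8 and 40.6 CPM. Most of this sum was *Spp1*, at 17.3 to 22.8 CPM in WT and 23.9 to 34.0 CPM in Inpp4b-/-. Of the 5 markers 4 were above 0 and 1 below, *Sox9* (-0.71 ± 0.31). Kupffer cell and leukocyte markers (8 of 10, *Cd3e* and *Ly6g* without a row) spanned 54.2 to 164 and 96.0 to 179 CPM, stellate cell markers (6 of 6) 62.5 to 79.3 and 63.7 to 85.1 CPM, and endothelial markers (5 of 5) 107 to 135 and 91.6 to 141 CPM. Of the stellate cell markers 3 were above 0 and 3 below, with *Lrat* higher without overlap (0.73 ± 0.20, edgeR adjusted p = 0.164). Red blood cell markers (5 of 5) spanned 114 to 431 and 208 to 346 CPM, with 3 above 0 and 2 below. The sum hides *Hba-a2*, which was low in CPM and called lower without overlap (-2.92 ± 0.54, edgeR adjusted p = 0.057). *Hba-a1* was at 0.85 ± 0.46. Of 6 adipocyte markers only *Fabp4* had a row, at 2.80 to 5.49 and 4.23 to 6.63 CPM, and the defining *Adipoq*, *Plin1* and *Ucp1* had none. The part of other cell types in the differences of the subunit genes was not tested.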

How the data were processed

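RNA of 8 livers was sequenced as 150-bp paired-end reads. The authors mapped the reads to GRCm38 with HISAT2 and counted them per gene with HTSeq, and deposited raw counts for genes with at least 1 read in every library of a genotype. The annotation release, the strand setting and all versions are not given in the sources used here, so members that share exon bases with another gene have uncertain counts. They also deposited a normalized signal (counts divided by a DESeq2 size factor), used only to check that it holds the same counts. The STAR counts of the study were not analysed here.

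All 18095 identifiers matched GENCODE M21. Of names fitting the rule, 3 non-coding genes in the table were left out. The fit used edgeR 4.0.16 (TMM, filterByExpr, quasi-likelihood test, all 8 libraries, no covariate) with Benjamini-Hochberg adjustment over the 14866 genes tested, and was tested on simulated data. Genes below the filter got a two-sided exact permutation test over 70 arrangements (smallest possible p 0.0286) on log2 of CPM plus 0.1. SEs were derived from edgeR's test, as the absolute log2 fold change divided by the square root of the F statistic. Intervals are 2 SE and cover 4 mice per genotype, and p-values measure the spread between these libraries. Companion and marker lists were written by hand. The subunit genes and all lists were chosen with earlier results of these data known. Library values are printed for the extremes of each complex, redox and catalytic subunits, isoform pairs and subunit c genes. Alternatives were DESeq2 1.42.0, other normalizations, filters and thresholds, an exon length offset, the replicate number as a block, and each library left out in turn. R 4.3.3, limma 3.58.1 and Python 3.11.15 were used. Replicate numbers did not pair the libraries.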

Additional observations from a re-analysis of the deposited data

Results flagged for a closer look

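A sample was singled out where its gap to the nearest of its group relative to the group's whole range exceeded Dixon's critical value for 4 samples. Among 88 groups of 4 libraries (44 genes, both genotypes) 3 were singled out, where chance alone gives about 4.4 (1 in 20). *Cox7a1* was 4.57 CPM in HFD WT replicate 4, with the next WT library at 1.28 CPM. *Atp5g1* was 140.8 CPM in HFD WT replicate 3, below the next WT library at 159.4 CPM. *Atp5k* was 129.4 CPM in HFD Inpp4b-/- replicate 3, above the next at 77.8 CPM.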

How the results depend on the processing

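The number of called subunit genes was 0 in the alternatives run, namely DESeq2, DESeq2 size factors and upper quartile scaling in edgeR, both other filters, the exon length offset, the replicate block, both other thresholds and each library left out. Both other thresholds (adjusted p under 0.05, or no fold limit) had to give 0, as the smallest adjusted p in the main fit was 0.251. With DESeq2 the calls rose from 0 to 2 among the mitochondrial DNA subunits and from 0 to 1 among the carriers. The cause was not tested. The number of subunit genes at an unadjusted p under 0.05 was 10 of 43, beside 13.9% of all tested genes. It was 12 with upper quartile scaling, beside 14.06%. With the length offset it was 3 (*Cox7a2l* lower, the others higher), beside 13.83%, and with the replicate block 4, beside 10.23%. With a library left out it was 0 to 11, beside 10.85% to 16.06% of all tested genes. The replicate numbers of the labels did not pair the libraries (correlations of same-numbered deviations -0.17 to -0.0104, others -0.0339 to 0.139), and under the replicate block the smallest adjusted p of a subunit was 0.406.

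The median of the 40 genes with at least 20 CPM was 0.13 and ranged from 0.09 to 0.18 with a library left out. Direction turned for some fold changes near 0 or of low counts, and the cause was not tested. With upper quartile scaling *Sdhd* was 0.0163 and *Atp5b* 0.0144, and with the length offset *Cox7a2* was -0.0122. With a library left out, *Sdhd* ranged from -0.0549 to 0.0308 (0.0115 without WT replicate 2, 0.0057 without WT replicate 3, 0.0082 without Inpp4b-/- replicate 1, highest without Inpp4b-/- replicate 4), *Atp5b* from -0.0449 to 0.0185 (highest without WT replicate 3, 0.0147 without Inpp4b-/- replicate 1), *Cox7a2* from -0.0119 (without WT replicate 2) to 0.124 and *Atp5mpl* from -0.101 to 0.0123 (highest without Inpp4b-/- replicate 4, 0.00012 without WT replicate 1). *Cox6b2* ranged from -0.87 to 0.20 (highest without WT replicate 3) and *Cox7a1* from -0.72 to 0.58 (highest without WT replicate 4). The other 420 values of the single subunit genes followed under the alternatives kept their direction and stayed on the same side of the threshold. Not followed singly were *Uqcr10*, *Uqcr11*, *Uqcrb*, *Uqcrc2*, *Uqcrh*, *Cox7a2l*, *Atp5d*, *Atp5e*, *Atp5f1*, *Atp5h*, *Atp5j2*, *Atp5l*, *Atp5o* and *Atp5s*. With 4 mice per genotype, the SEs of the 40 genes were 0.07 to 0.21 on the log2 scale.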
